A study of Mus musculus with 42 samples.

Results

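Olfr1471 and Olfr1474 are 2 odorant receptor (OR) genes of the mouse with nearly the same coding sequence. They were followed through all 9 tables of intact OR counts of this study, as 2 of 1088 ORs in the pS6-IP-Seq tables and 2 of 1087 ORs in the table of dorsal and ventral tissue. They were chosen by their shared sequence and by their rise with ACT and with TMT over no odor in these same tables. Their odor values against no odor are therefore a description, and no p-value is given. The SE printed with them comes from the edgeR fit of the same contrasts, so it is no independent support for the rise. pS6-IP-Seq captures RNA bound to phosphorylated ribosomal protein S6 from the olfactory epithelium. C57BL/6 mice (C57BL/6J in the study's methods) 20 to 22 days of age were exposed for 1 h to acetophenone (ACT) or to trimethylthiazoline (TMT) at a starting concentration of 0.01%, 0.1%, 1% or 100% (v/v), or to a cassette with no odor. Each group held 3 mice, 1 per replicate, and each of 12 replicates gave a no odor mouse and 2 odor mice. The study used littermates of the same sex for a replicate, so a replicate is called a litter here. Whether 1 litter served more than 1 replicate is not given in the sources used here. The 0.01% and 0.1% groups of an odorant share their 3 no odor libraries, and the 1% and 100% groups share another 3, so values at paired concentrations are not independent. Total RNA of dissected dorsal and ventral epithelium was sequenced in 3 libraries each.

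An OR is a G-protein-coupled receptor on the cilia of olfactory sensory neurons, and a mature neuron expresses 1 OR gene at a high level. The RNA of an OR therefore comes from the neurons that chose it. Neuronal activity leads to phosphorylation of S6, and immunoprecipitation of phosphorylated S6 then enriches the RNA of active neurons, so an OR that responds to an odor rises in the captured RNA. Each OR is expressed in a restricted zone of the epithelium, along an axis from dorsal to ventral. In bulk tissue, more neurons and more captured RNA per neuron cannot be told apart.

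Both genes lie on the plus strand of chromosome 19 in GRCm38. The GENCODE gene Olfr1471 (ENSMUSG00000096320.2) spans chr19:13443409-13451527 and Olfr1474 (ENSMUSG00000096273.3) spans chr19:13469565-13472157. In RefSeq, each has a coding sequence of 945 bases in a single exon, at chr19:13445014-13445958 for Olfr1471 and chr19:13470972-13471916 for Olfr1474, with 25013 bases between them. The longest coding GENCODE transcript has 3 exons and 1662 bases for Olfr1471 and 4 exons and 1539 bases for Olfr1474.

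The 2 coding sequences differed at 27 of 945 bases (97.1% identity), and the encoded proteins at 12 of 314 residues (96.2% identity). Reads were 50 bases long, and 217 of the 896 possible 50-base reads of the coding sequence were the same in both genes (24.2%). Over the longest coding transcripts, 339 of 1613 possible reads of Olfr1471 (21.0%) and 339 of 1490 of Olfr1474 (22.8%) were shared by the pair. Reads from those places fit both genes, and the split of their counts was estimated by RSEM. A pair of stretches of the RefSeq sequence is shown, since they set what a read can tell. The first is the earliest of the 50-base windows with the most differences, 4, at coding positions 395 to 444 counted from the start codon. Its capitals mark the bases that differ (C432T, C435G, T443C and G444T, from Olfr1471 to Olfr1474). It lies at chr19:13445408-13445457 in Olfr1471 and at chr19:13471366-13471415 in Olfr1474.
Olfr1471: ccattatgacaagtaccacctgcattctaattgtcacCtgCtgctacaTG
Olfr1474: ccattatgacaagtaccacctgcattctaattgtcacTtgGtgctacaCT
The second is the longest stretch without a difference, 128 bases at coding positions 786 to 913, at chr19:13445799-13445926 in Olfr1471 and chr19:13471757-13471884 in Olfr1474.
Both genes: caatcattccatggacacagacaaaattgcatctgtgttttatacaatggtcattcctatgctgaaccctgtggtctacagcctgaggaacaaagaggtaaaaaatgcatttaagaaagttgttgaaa
A 50-base read within this stretch cannot be assigned to 1 of the 2 genes, whereas a read over the first window holds up to 4 differences. Identical stretches of at least 50 bases occurred in 7 places of the coding sequence.

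**Figure D1:**
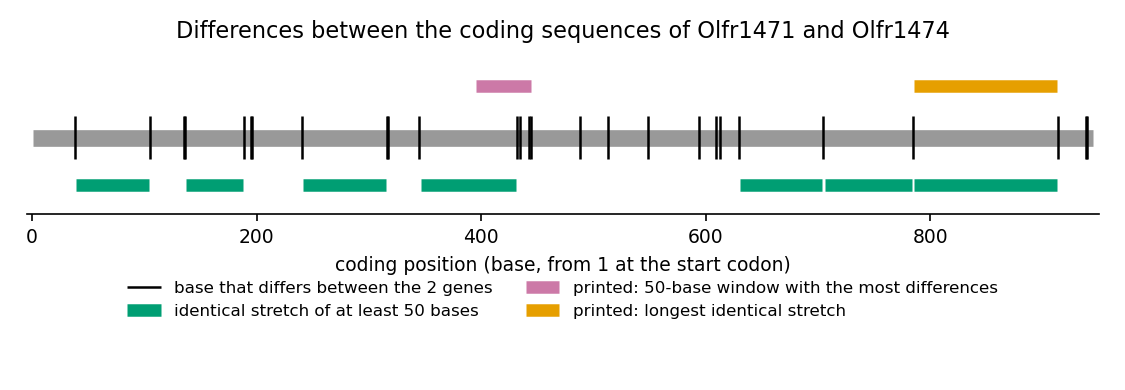
Positions along the 945-base coding sequence at which Olfr1471 and Olfr1474 differ (27 black lines), the 7 identical stretches of at least 50 bases (green) and the 2 stretches that are printed in the text. The longest identical stretch, of 128 bases, lies near the 3′ end.

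Other genes also shared reads with the pair. Of the 896 possible coding reads, 285 of Olfr1471 (31.8%) and 315 of Olfr1474 (35.2%) occurred in at least 1 other GENCODE gene. Apart from the partner, these genes were Olfr1475 (69 reads of Olfr1471 and 95 of Olfr1474), Olfr1472 (20 and 11) and the pseudogene Olfr1473-ps1 (17 and 56). Olfr1475 and Olfr1472 were scarcely counted: over the 36 pS6-IP-Seq libraries Olfr1475 had 0 to 7 counts and Olfr1472 had 0 to 14. The pseudogene is not in the tables of intact ORs and was not analysed here.

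Without odor, both receptors had low counts. Olfr1471 had 9 to 43 counts in the 12 no odor libraries, with a median of 15, and Olfr1474 had 28 to 80, with a median of 44. After scaling of the libraries to a common size, the normalized counts were 18.8 ± 6.5 for Olfr1471 and 50.9 ± 7.81 for Olfr1474 (mean ± SD, n = 12). Together the pair held 0.0789% to 0.12% of the counts on intact ORs in these libraries. Per kilobase of the longest coding transcript, Olfr1474 was above Olfr1471 in 42 of 42 libraries of all kinds, with a median ratio of 2.99 in the no odor libraries and a range of 1.49 to 7.2. The transcript lengths that the authors used are not given in the sources used here, so this ratio rests on the GENCODE lengths. Counts this low make a fold against no odor imprecise, more so for Olfr1471.

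The order of the 12 pS6-IP-Seq groups by mean normalized count began with the same 5 groups for both genes: TMT at 100%, TMT at 1%, ACT at 1%, ACT at 100% and ACT at 0.01%. For Olfr1471 the means ran from 120 ± 45.7 at 100% TMT (mean ± SD, n = 3) down to 13.0 ± 6.07 in the no odor libraries of the low TMT concentrations. For Olfr1474 they ran from 281 ± 63.6 at 100% TMT to 39.1 ± 9.02 at 0.01% TMT. The range of each group overlapped that of the next lower group at every step of both orders, so neighbouring places in the order do not differ beyond the spread of the litters.

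**Figure D2:**
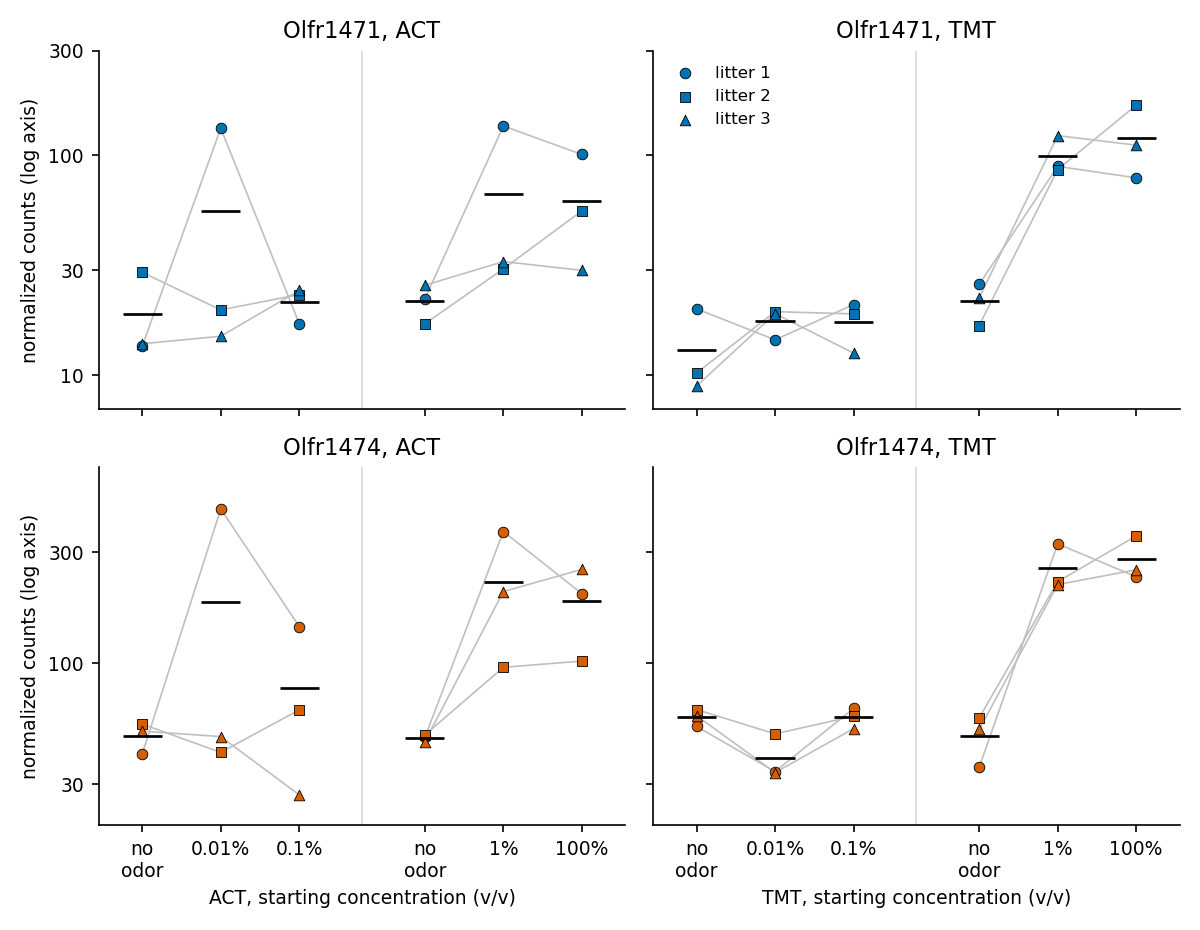
Normalized counts (log axis) of Olfr1471 (top) and Olfr1474 (bottom) in the ACT (left) and TMT (right) experiments. Points are single mice, grey lines join mice of 1 litter, and black bars are means of 3. The vertical line separates 2 experiments with different no odor mice. At 1% and 100% of TMT all litters lie above all no odor mice.

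Both receptors were higher in every litter with TMT at 1% and 100%. Olfr1474 had 33, 38 and 30 counts in the no odor mice of litters 1 to 3, 172, 273 and 154 counts at 1% TMT, and 161, 240 and 195 at 100% TMT. Olfr1471 had 24, 11 and 13 counts without odor, 47, 105 and 87 at 1% TMT, and 54, 115 and 86 at 100% TMT. In normalized counts, the mice exposed to 1% or 100% TMT were all above the no odor mice for both genes. The share of all ORs for which this holds was not counted, so it cannot be read as particular to the pair. By another measure, the edgeR call, 4.69% of all ORs were higher at 1% and 11.6% at 100%. The fitted log2 fold changes at 1% TMT were 2.36 ± 0.26 (SE) for Olfr1474, or 5.14-fold, and 2.13 ± 0.34 for Olfr1471, or 4.38-fold. At 100% TMT they were 2.49 ± 0.29, or 5.63-fold, and 2.33 ± 0.33, or 5.03-fold. By the size of the fold change, Olfr1474 held place 25 of 1088 ORs at both concentrations, and Olfr1471 held place 32 at 1% and 36 at 100%. These are the values on which the pair was selected, so neither the folds nor their SE test the rise.

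With dilute TMT, Olfr1474 was at or below the no odor level and Olfr1471 had small positive changes. At 0.01% TMT, Olfr1474 had 33, 51 and 39 counts against 56, 68 and 60 without odor, and its normalized counts were lower than those of the no odor mouse in each of 3 litters. The fitted log2 change was -0.61 ± 0.33, and the odor and no odor mice did not overlap. The share of all ORs without such overlap was not counted, so the lack of overlap cannot be read as particular to Olfr1474. At an unadjusted p below 0.05 in edgeR, 38 of 1088 ORs were lower and 18 higher. By another measure, the edgeR call, 0.0919% of all ORs were lower and 0.368% higher in this comparison. Olfr1471 had 14, 20 and 22 counts at 0.01% TMT against 21, 11 and 9 without odor, a log2 change of 0.48 ± 0.52 with 2 of 3 litters above no odor. The paralogues had opposite signs at this concentration. At 0.1% TMT, Olfr1474 had 64, 56 and 83 counts and a log2 change of -0.00122 ± 0.27, and Olfr1471 had 21, 18 and 20 counts and a change of 0.47 ± 0.51. Olfr1471 was higher than the no odor mouse in 3 of 3 litters there, with overlapping groups. The sum of both rows, which does not depend on how reads were split between them, changed by -0.36 ± 0.30 at 0.01% and by 0.08 ± 0.25 at 0.1% TMT.

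With ACT at 1% and 100%, both were also higher in every litter, by less even amounts. Olfr1474 had 28, 43 and 34 counts without odor, 309, 104 and 192 at 1% ACT, and 132, 73 and 203 at 100% ACT. Olfr1471 had 13, 15 and 19 counts without odor, 114, 33 and 31 at 1% ACT, and 67, 40 and 24 at 100% ACT. The normalized counts of odor and no odor mice did not overlap for either gene at either concentration. How many of all ORs had no overlap was not counted, so its absence cannot be read as particular to the pair. By another measure, the edgeR call, 1.38% of all ORs were higher at 1% ACT and 0% at 100% ACT. At 100% ACT, 114 ORs were higher at an unadjusted p below 0.05 in edgeR, and DESeq2 called 17 higher. The study's own edgeR analysis reported many ORs as enriched at 100% ACT, so the 0% belongs to the fit used here. The log2 fold changes at 1% ACT were 2.01 ± 0.28 for Olfr1474, or 4.03-fold, and 1.28 ± 0.37 for Olfr1471, or 2.44-fold. At 100% ACT they were 1.84 ± 0.38, or 3.57-fold, and 1.36 ± 0.48, or 2.57-fold. Olfr1474 held places 23 and 36 of 1088 by fold change at 1% and 100% ACT, and Olfr1471 places 61 and 82. In the third litter the paralogues parted: Olfr1474 was 4.36 times its no odor level at 1% and 5.43 times at 100%, whereas Olfr1471 was 1.27 and 1.16 times its no odor level.

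At 0.01% ACT the rise of both genes rested on 1 mouse. Here Olfr1474 had 500, 75 and 45 counts in litters 1 to 3 against 45, 80 and 66 without odor, and Olfr1471 had 144, 36 and 14 against 15, 43 and 18. The mouse of litter 1 was 11.1 times its no odor littermate in Olfr1474 and 9.22 times in Olfr1471, while the ratios in the other litters lay between 0.685 and 1.08. The fitted log2 changes of 0.90 ± 0.84 for Olfr1474 and 0.90 ± 0.82 for Olfr1471 became -0.25 and -0.28 without litter 1. At 0.1% ACT, Olfr1474 had 226, 92 and 39 counts and a log2 change of 0.43 ± 0.41, and Olfr1471 had 27, 34 and 35 counts and a change of 0.26 ± 0.40. Only Olfr1474 was high in litter 1 of this group, at 3.48 times its no odor level against 1.25 times for Olfr1471, and it was at 0.54 times in litter 3. The value of Olfr1474 at 0.1% ACT became -0.32 without litter 1, and that of Olfr1471 became 0.19 without litter 1 and -0.03 without litter 3.

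Some of these ACT mice also stood apart in other ORs. The litters are numbered within an experiment, so litter 1 of the 0.01% and 0.1% groups need not be litter 1 of the 1% and 100% groups. For the 49 other ORs called higher at 1% TMT, the median log2 change over the no odor littermate was 1.78 in the 0.01% ACT mouse of litter 1, against 0.07 and 0.11 in litters 2 and 3. The 0.1% ACT mouse of the same litter 1 did not stand apart in these ORs, with a median of 0.0834 against -0.10 and 0.0348. In the experiment of the higher concentrations it was 1.98 in litter 1 at 1% ACT, against 0.25 and 0.21, and 0.95 in litter 1 at 100% ACT, against 0.25 and 0.37. In that experiment litter 1 had the largest change of Olfr1471 at both concentrations and of Olfr1474 at 1%, while litter 3 had that of Olfr1474 at 100%. Without litter 1 of that experiment, the log2 fold changes at 1% ACT were 1.55 for Olfr1474 and 0.58 for Olfr1471, and at 100% ACT they were 1.79 and 0.99. The part of these litters in the pair's values was not tested beyond leaving each out. All 12 mice at 1% and 100% of either odorant had a larger share of OR counts on the pair, 0.206% to 0.641%, than any no odor mouse. The pair was chosen by its rise in these mice, so this share does not test the rise. It was not set against that of other ORs.

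**Figure D3:**
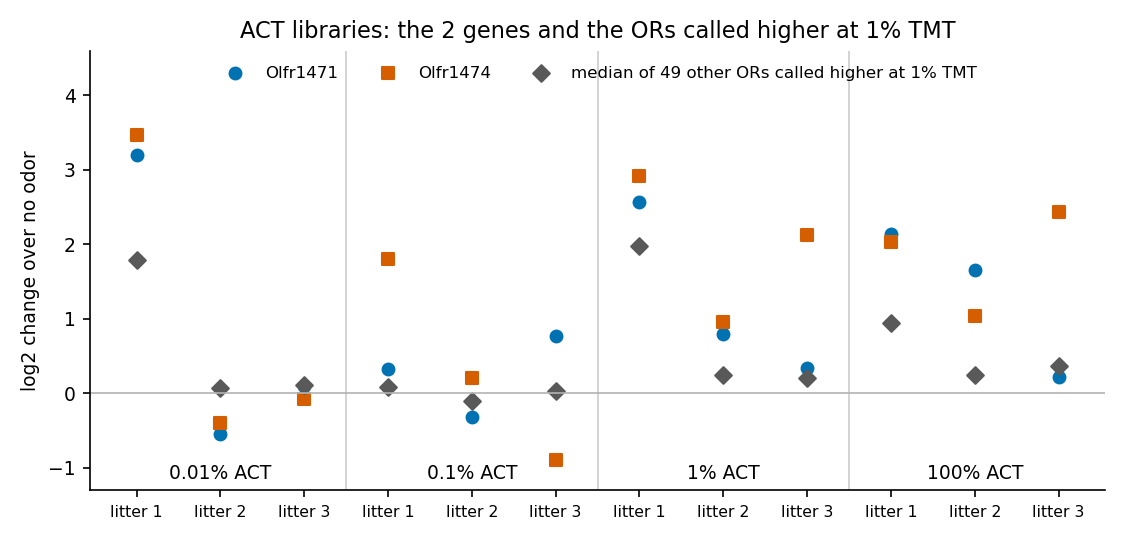
Log2 change over the no odor littermate (normalized counts plus 1) in the 12 ACT mice, for Olfr1471, Olfr1474 and the median of 49 other ORs called higher at 1% TMT. Litters are numbered within an experiment (0.01% and 0.1%, or 1% and 100%); in the mice of litter 1 the median of these ORs is 1.78 at 0.01%, 0.0834 at 0.1%, 1.98 at 1% and 0.95 at 100% ACT, against 0.37 or less in every mouse of litters 2 and 3.

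Within each odorant, the undiluted concentration was compared with 1% in a fit over its 18 pS6-IP-Seq libraries. The pair was chosen by its rise over no odor in these same libraries, which limits how far a difference between concentrations can be read. For TMT, Olfr1474 differed by 0.14 ± 0.24 log2 (95% interval -0.33 to 0.62, edgeR adjusted p = 0.83) and Olfr1471 by 0.27 ± 0.31 (-0.34 to 0.89, adjusted p = 0.746). In that comparison edgeR called 8.09% of all ORs in either direction. For ACT, Olfr1474 differed by -0.18 ± 0.58 (-1.42 to 1.06, edgeR adjusted p = 0.94) and Olfr1471 by 0.08 ± 0.65 (-1.31 to 1.47, adjusted p = 0.989). There edgeR called 0% of the ORs, with 138 at an unadjusted p below 0.05, and DESeq2 called 19. Neither paralogue was called between 1% and 100% of either odorant. For TMT the intervals leave room for a change of less than 2-fold in either direction, and for ACT they are wider. Normalized counts at the 2 concentrations overlapped for both genes and both odorants.

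The responses to the 2 odorants were compared at matched concentrations, as the within-litter change with ACT minus that with TMT, in a fit over all 36 pS6-IP-Seq libraries. The selection asked for a rise with both odorants, which limits how far a difference can be read. At 1%, the difference was -0.40 ± 0.69 for Olfr1474 (95% interval -1.84 to 1.03) and -0.87 ± 0.81 for Olfr1471 (-2.54 to 0.79), with an edgeR adjusted p of 1 for both. At 100%, it was -0.71 ± 0.69 for Olfr1474 (-2.14 to 0.72, edgeR adjusted p = 0.843) and -1.07 ± 0.81 for Olfr1471 (-2.74 to 0.60, adjusted p = 0.705). The response to ACT was the lower one in all 4 estimates, and none passed the test. The 4 are not independent, since the concentrations share no odor mice and the genes share reads and mice. In both comparisons edgeR called 0% of all ORs, with 50 at an unadjusted p below 0.05 at 1% and 118 at 100%, and DESeq2 called 2 and 10. For Olfr1471 the difference was -1.81 at 1% and -1.84 at 100% without replicate 1, which takes 1 litter out of each ACT and TMT experiment, with edgeR adjusted p values of 0.25 and 0.105. Without replicate 3 it was -0.20 and -0.54 (adjusted p = 1 for both).

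The ratio of the 2 counts shows how far the paralogues moved together. In the 12 no odor libraries, Olfr1474 had 1.38 to 6.67 times the counts of Olfr1471, with a median of 2.77, and in the 12 libraries of 1% and 100% odor it had 1.77 to 8.46 times, with a median of 2.66. With TMT the ratio was 2.68 ± 0.95 at 1% and 2.45 ± 0.47 at 100% (mean ± SD, n = 3). With ACT it was more spread, 4.02 ± 1.90 at 1% and 4.08 ± 3.79 at 100%. The third litter had the highest ratio in both ACT groups, 6.19 and 8.46, and these mice share a no odor littermate with a ratio of 1.79. Over the 24 odor libraries, the within-litter changes of the 2 genes had a Pearson correlation of 0.70, given as a description, since libraries of a litter share a no odor mouse and since the genes share reads.

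**Figure D4:**
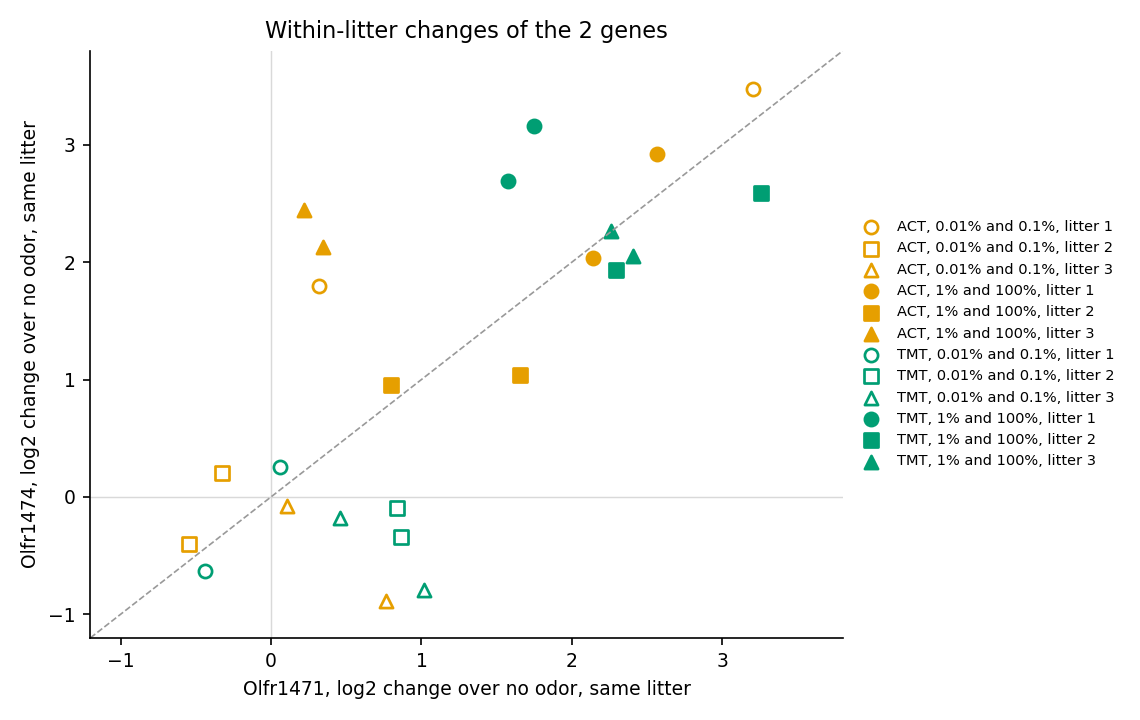
Log2 change over the no odor littermate of Olfr1474 (vertical axis) against Olfr1471 (horizontal axis) in 24 odor mice; open symbols are 0.01% and 0.1%, filled symbols 1% and 100%, shapes are litters within an experiment and the dashed line marks equal change. The 2 filled triangles of ACT near the vertical axis are the third litter, with Olfr1471 at 1.27 and 1.16 times and Olfr1474 at 4.36 and 5.43 times its no odor level.

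Both paralogues had more counts in ventral than in dorsal tissue, and 1 of them passed the test. These libraries were made without the capture of phosphorylated S6 and held 155319 to 242123 counts on ORs. Olfr1471 had 23, 46 and 8 counts in the dorsal libraries and 106, 110 and 88 in the ventral libraries. Its normalized counts were 29.0 ± 22.9 dorsally and 90.9 ± 6.83 ventrally (mean ± SD, n = 3), so the ventral libraries were all above the dorsal ones. Olfr1471 was called higher in ventral tissue, with a log2 fold change of 1.91 ± 0.63 (95% interval 0.55 to 3.27, 3.76-fold, edgeR adjusted p = 0.0146). Olfr1474 had 108, 125 and 87 counts dorsally and 173, 204 and 193 ventrally, or 122 ± 23.7 and 171 ± 13.0 normalized counts. Its groups did not overlap either, but the difference of 0.51 ± 0.53 (-0.64 to 1.65, 1.42-fold) did not pass the test (edgeR adjusted p = 0.399). Of all ORs, edgeR called 37.2% higher in ventral and 37.4% higher in dorsal tissue, 74.6% in all, so a call in this comparison is common. How many ORs had no overlap between the tissues was not counted, so the separation cannot be read as particular to either gene. By log2 fold change, Olfr1471 held place 346 and Olfr1474 place 562 of 1087, where the median OR was at 0.65.

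Both values moved with the scaling, and the call of Olfr1471 with single pairs of libraries. Without TMM scaling, the ventral values rose by 0.59 on the log2 scale on average, to 2.50 for Olfr1471 (edgeR adjusted p = 0.0206) and 1.10 for Olfr1474 (adjusted p = 0.0812). Without the first pair of libraries the value of Olfr1471 was 1.79 with an edgeR adjusted p of 0.161, and without the third pair it was 1.42 with an adjusted p of 0.206, while without the second pair it was 2.39 and still called (adjusted p = 0.0151). Olfr1474 was not called on leaving out any pair, with values of 0.40 to 0.52. The sum of both rows was higher in ventral tissue by 0.84 ± 0.56 (-0.36 to 2.04) and did not pass (edgeR adjusted p = 0.185), but it passed without the second pair, at 0.94 (adjusted p = 0.0343).

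The count ratio of the paralogues was compared between the tissues as well. Olfr1474 had 4.70, 2.72 and 10.9 times the counts of Olfr1471 in the dorsal libraries and 1.63, 1.85 and 2.19 times in the ventral ones. The log2 ratio of counts plus 1 was 2.30 ± 0.94 in dorsal and 0.90 ± 0.21 in ventral libraries, a difference of 1.39. All dorsal ratios were above all ventral ratios, and the exact permutation test (of both sides) gave p = 0.1, the smallest that 3 against 3 libraries allow. The highest dorsal ratio rests on 8 counts of Olfr1471.

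**Figure D5:**
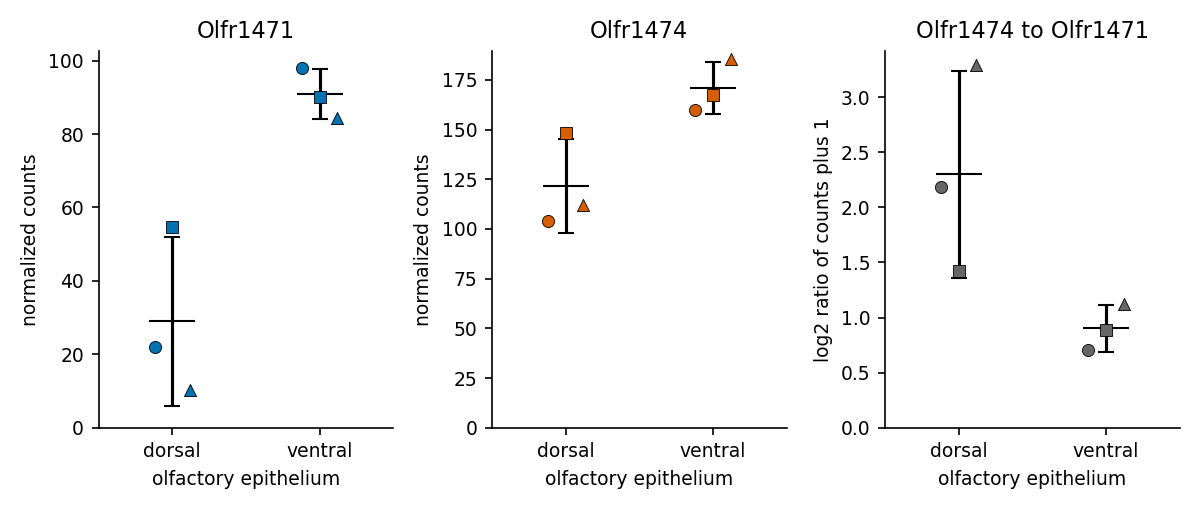
Normalized counts of Olfr1471 and Olfr1474 in 3 dorsal and 3 ventral libraries, and the log2 ratio of Olfr1474 to Olfr1471 (counts plus 1); symbols are replicates, bars mean ± SD. Olfr1471 lies between 10.3 and 54.6 dorsally and between 84.5 and 98.1 ventrally.

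The neighbours in the genome were read beside the pair. Within 100 kb of either gene lie 6 other intact ORs: Olfr1467, Olfr1469, Olfr1472, Olfr1475, Olfr1477 and Olfr1480. Olfr1475 and Olfr1472 were closest in sequence, with 92.6% and 91.5% identity to the coding sequence of Olfr1471 and 91.2% and 89.7% to that of Olfr1474, and the others had 69.7% to 79.7%. With 1% ACT, 0 of 6 were called higher by edgeR, against 1.38% of all ORs, and 0 of 6 with 100% ACT, against 0%. At an unadjusted p below 0.05 in edgeR, 2 of 6 were higher in each. On that measure 48 of all 1088 ORs were higher at 1% ACT and 114 at 100% ACT. With 1% TMT, 1 of 6 was called higher, against 4.69%, and with 100% TMT 2 of 6, against 11.6%. In dorsal and ventral tissue 2 of 6 were higher ventrally (37.2% of all ORs) and 1 of 6 dorsally (37.4%).

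Olfr1477 was the neighbour called most often. It had 31, 21 and 24 counts without odor, 45, 96 and 86 at 1% TMT and 112, 198 and 225 at 100% TMT, so every litter was higher at 100% than at 1%. Its log2 fold changes were 1.36 ± 0.32 at 1% (edgeR adjusted p = 0.000597) and 2.71 ± 0.30 at 100% TMT (adjusted p = 5.07e-17). It was called higher at 100% than at 1% TMT, by 1.40 ± 0.28 (edgeR adjusted p = 9.14e-05), and was the only one of the 6 called there, where 8.09% of all ORs were called. With ACT it was not called: its log2 fold change was 0.66 ± 0.36 at 1% (edgeR adjusted p = 0.744) and 2.07 ± 0.40, or 4.19-fold, at 100% ACT (adjusted p = 0.0508), the smallest adjusted p of any OR in that comparison. In the 0.01% ACT mouse of litter 1, Olfr1477 had 443 counts against 38 in its no odor littermate. In that mouse Olfr1467 (209 against 24) and Olfr1469 (60 against 7) were also higher. There Olfr1480 (12 against 23) and Olfr1472 (0 against 4) were lower, and Olfr1475 had 0 in both. Like Olfr1471, Olfr1477 was higher in ventral tissue, by 1.92 ± 0.61 (edgeR adjusted p = 0.012).

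A further 3 neighbours were called in 1 comparison each. Olfr1469 was higher at 100% TMT by 1.84 ± 0.59 (edgeR adjusted p = 0.016). Olfr1480 was higher ventrally by 2.43 ± 0.70 (edgeR adjusted p = 0.0069), and Olfr1467 was higher dorsally, with a ventral value of -2.19 ± 0.61 (adjusted p = 0.00576). Olfr1472, which lies between the paralogues, had 7 to 14 counts in the dorsal and ventral libraries and a ventral value of 0.11 ± 0.74 (edgeR adjusted p = 0.912).

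The ORs most like each gene were found by the Pearson correlation of their within-litter log2 changes over the 24 odor libraries, among the 875 other ORs that averaged 10 or more counts per library. For Olfr1474 these were Olfr136 (r = 0.90), Olfr376 (0.90), Olfr1466 (0.82), Olfr1238 (0.81) and Olfr1051 (0.79). For Olfr1471 they were Olfr531 (0.84), Olfr309 (0.83), Olfr527 (0.82), Olfr173 (0.82) and Olfr1134 (0.81). The 2 lists of 5 shared no OR, and the paralogues were not each other's nearest: Olfr1471 held place 15 in the order of Olfr1474, and Olfr1474 place 22 in that of Olfr1471, at a correlation of 0.70. Olfr1477 held place 9 in both orders, with 0.77 to Olfr1471 and 0.73 to Olfr1474. Of the 5 ORs most like Olfr1471, 2 stayed in its list without replicate 3 and 3 stayed with Spearman's correlation, and of the 5 most like Olfr1474, 3 stayed without replicate 1 or without replicate 3. The points of these correlations share no odor mice and include the 0.01% ACT mouse of litter 1. Over the 36 pS6-IP-Seq libraries Olfr1471 averaged 39.4 counts and Olfr1474 114. The ORs of the 2 lists averaged from 12.4 (Olfr1051) to 611 (Olfr531). The part of low counts and of shared reads in the places of the paralogues was not tested.

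The nearest ORs had their own sizes of change. With 1% and 100% TMT, Olfr376 changed by 2.68 ± 0.17 and 2.82 ± 0.55 log2 on average over the litters (mean ± SD, n = 3), and with ACT by 2.35 ± 0.78 and 1.97 ± 0.83. Olfr136 changed by 1.60 ± 0.22 and 1.82 ± 0.44 with TMT, and by 1.44 ± 0.61 and 1.23 ± 0.58 with ACT. Olfr531, nearest to Olfr1471, changed by 2.33 ± 0.16 and 2.47 ± 0.23 with TMT, and by 1.08 ± 1.34 and 1.54 ± 0.45 with ACT. In the same terms Olfr1474 changed by 2.38 ± 0.68 and 2.51 ± 0.22 with TMT and by 2.0 ± 0.99 and 1.84 ± 0.72 with ACT, and Olfr1471 by 2.15 ± 0.35 and 2.37 ± 0.85 with TMT and by 1.23 ± 1.17 and 1.34 ± 1.00 with ACT. Of those most like Olfr1474, Olfr376 was called higher in dorsal tissue (ventral value -3.47, edgeR adjusted p = 0.000275) and Olfr1238 higher in ventral tissue (2.18, adjusted p = 0.0197), and the other 3 were not called. Of those most like Olfr1471, Olfr531 (3.15, edgeR adjusted p = 0.00182) and Olfr527 (2.0, adjusted p = 0.0145) were called higher in ventral tissue, and the other 3 were not called.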

How the data were processed

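The pS6-IP-Seq tables hold 36 libraries of mouse olfactory epithelium, and 1 further table holds 6 libraries of dorsal and ventral epithelium. The authors aligned reads of 50 bases to GRCm38 by STAR and obtained expected counts by RSEM, with OR annotations that include UTRs; the deposited tables give these expected counts rounded to whole numbers, for intact ORs. Reads that fit both paralogues were therefore divided by an estimate. The label of 1 library at 0.1% TMT names a file of 1% TMT, and its odor label and the authors' code, followed here, give 0.1%. The protocol in the labels of the dorsal and ventral libraries describes the S6 capture, and the total RNA method of the study was followed. The tables also hold the authors' own fold changes, p-values, FDR values, CPM and group means, which were not used.

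Olfr1471, Olfr1474 and the lists around them were chosen with earlier results of these data known. The counts were tested with edgeR 4.0.16 in R 4.3.3 (glmQLFit, robust, and glmQLFTest), with TMM over ORs, no filter on low counts and the replicate number as a block. Benjamini-Hochberg adjustment covered the intact ORs, with a threshold of 0.05. The SE was derived from the log2 fold change and its F statistic, so it restates the test, and the 95% intervals use it. Within-litter changes use normalized counts plus 1. Counts on ORs ran from 37012 to 128805 per pS6-IP-Seq library, so a no odor count of the pair carries large counting error. The named genes are the pair, the 5 ORs most like each, and those intact ORs within 100 kb that were called in a comparison; Olfr1472 and Olfr1475 were added for the reads they share with the pair, after their values were seen. The planned choice of relatives by protein identity was replaced by the planned choice by distance, since no protein table was used here. Sequences came from RefSeq and transcripts from GENCODE M21, both on GRCm38; RefSeq symbols matched 1086 and GENCODE symbols 1083 of the 1088 ORs.

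Littermates of the same sex make up a pS6-IP-Seq replicate, so numbers pair these libraries. Deviations from the group means had median correlations of 0.088 to 0.143 between libraries of the same number and of -0.064 to -0.026 between different numbers. For dorsal and ventral libraries the values were -0.307 and 0.184, and their numbers come only from the authors' code. The study used 3 mice for these libraries; the labels do not tie libraries to mice. The alternatives were no TMM, DESeq2 1.42.0, a low-count filter, no block, leaving out each replicate number, summing the pair and, for likeness and the ratio, another pseudocount or Spearman's correlation. Steps across all ORs were tested on simulated data. Python 3.11.15 with pandas 2.3.3, scipy 1.17.1 and Biopython served for the rest.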

Additional observations from a re-analysis of the deposited data

Results flagged for a closer look

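The mean change of Olfr1474 was negative at 0.01% TMT and positive at 1% and 100% TMT. At 0.01% TMT it was below its no odor littermate in 3 of 3 litters, with a mean log2 change of -0.59 ± 0.23 (SD, n = 3), and it was above it in 3 of 3 litters at 1% (2.38 ± 0.68) and at 100% TMT (2.51 ± 0.22). At 0.1% TMT its mean change was -0.00753 ± 0.23, with 1 of 3 litters above no odor. The mean changes differed by 2.97 between 1% and 0.01% and by 3.10 between 100% and 0.01%. These differences were not tested, the 2 experiments used different no odor mice, and the rise at the higher concentrations was a reason for choosing the gene. The fitted change of Olfr1474 at 0.01% TMT was -0.61 ± 0.33 (SE). For the sum of both rows, which does not depend on the split of shared reads, it was -0.36 ± 0.30 (SE). Olfr1471 had a positive mean change there, 0.48 ± 0.80 (SD), with 2 of 3 litters above no odor.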

How the results depend on the processing

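The low counts of Olfr1471 and the split of shared reads limit what can be said of each gene alone. Summing the pair gave -0.36 log2 at 0.01% TMT and 0.0832 at 0.1% TMT in place of the separate values, and -0.0926 between 100% and 1% ACT, where Olfr1471 alone had 0.08; it gave 0.84 in ventral tissue, where the call of Olfr1471 was lost. Without TMM scaling, Olfr1474 at 100% TMT was at 2.25, and the ventral value of the sum became 1.43 and passed. Without the replicate block, Olfr1471 between 100% and 1% ACT turned to -0.0735, and the block changed no call of either gene. Leaving out 1 replicate gave ventral values of 1.42 to 2.39 for Olfr1471 and 0.69 to 0.94 for the sum, positive in each case. It gave values between 100% and 1% ACT of -0.30 to 0.42 for Olfr1471 and -0.48 to 0.24 for Olfr1474, and between 100% and 1% TMT of -0.0945 to 0.50 and -0.0702 to 0.46, so the signs between 100% and 1% are not fixed. The causes were not tested.

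The background counts moved more. ORs called higher at 1% ACT were 15, against 3 with DESeq2, 7 with the filter, 2 without the block and 0 to 19 leaving out 1 replicate. At 100% ACT the count of 0 became 17 with DESeq2, 7 without the block and 4 to 82 leaving out 1 replicate. Between 100% and 1% ACT, 0 became 19 with DESeq2 and 0 to 64. For ACT minus TMT, 0 became 1 without TMM, 2 with DESeq2 and 0 to 25 at 1%, and 6, 10 and 0 to 61 at 100%, or 1 without the block. ORs higher in ventral tissue were 404, and 201 to 410 leaving out 1 replicate. Among the ORs most like each gene, Olfr1474 held place 8 to 65 in the order of Olfr1471, and Olfr1471 place 6 to 58 in that of Olfr1474, leaving out 1 replicate.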
